A study of Drosophila melanogaster with 2 samples.

Results

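The intergenic summits of Gug ChIP-seq peaks are the binding positions that lie inside no annotated gene and over 500 bp from every transcript start. They were taken from the thresholded peak list that the authors made from both replicates, with 1 summit for each row and arms X, 2L, 2R, 3L, 3R and 4 alone. Of 5750 summits on these 6 arms, 918 met the rule, which is 16% (95% exact binomial interval 15 to 16.9%). The sequence that meets the same rule, called eligible sequence here, makes up 36.5 Mb of 134 Mb, or 27.2%. The replicates' own lists held 589 intergenic summits of 3826 in replicate 1 and 578 of 3999 in replicate 2. The samples were 2 biological replicates of whole prepupae of the strain Gug-GFP, aged 1 day, in which an insertion that targets Gug makes a Gug-eGFP fusion protein. Chromatin was sheared by sonication and pulled down with an antibody to GFP, and sex was not recorded. Every sample carried the fusion, so there is no second condition to compare. Whole animals were used, so more cells bound and more binding per cell cannot be told apart, and the tissue of a peak is unknown. With 1 group of 2 samples there is no test over samples, and peaks are not replicates. Values are therefore given with no p-value, and the intervals, exact binomial for shares and exact Poisson for densities, cover counting error only.

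Gug is the fly's Atrophin, known too as Grunge, and acts as a transcriptional corepressor. It is brought to DNA by other proteins, among them the nuclear receptor Tailless and the homeodomain protein Even-skipped, and it also binds the cytoplasmic part of the cadherin Fat. Intergenic DNA of the fly holds enhancers, silencers and insulators that can act on a gene at a distance, so the nearest gene is not always the one controlled. Peaks at promoters and in introns serve below as the comparison.

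The DNA under intergenic summits is shown by 3 sets of windows, all on the plus strand of dm6 and taken from the RefSeq genome of the same assembly. The windows of the first set, 200 bp centred on the summit, belong to the 3 strongest summits on 2L, 3L and 3R, whose signal was 1309, 837 and 709 in the order printed. Signal is the authors' value per peak, has no stated unit and is compared only within 1 list. None of them holds the word TNCACTGA described below, so all letters are in lower case.
COX7AL2 to CG31668, chr2L:2202306-2202505: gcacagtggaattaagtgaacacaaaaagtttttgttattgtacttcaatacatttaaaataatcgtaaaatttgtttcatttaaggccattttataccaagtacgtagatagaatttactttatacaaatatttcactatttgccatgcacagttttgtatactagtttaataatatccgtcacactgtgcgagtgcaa
CG43245 to CG12523, chr3L:10776466-10776665: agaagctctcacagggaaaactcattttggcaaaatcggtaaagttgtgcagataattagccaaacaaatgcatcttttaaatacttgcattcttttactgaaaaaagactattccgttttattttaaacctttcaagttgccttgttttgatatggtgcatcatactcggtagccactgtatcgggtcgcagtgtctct
mtSSB to tara, chr3R:16222399-16222598: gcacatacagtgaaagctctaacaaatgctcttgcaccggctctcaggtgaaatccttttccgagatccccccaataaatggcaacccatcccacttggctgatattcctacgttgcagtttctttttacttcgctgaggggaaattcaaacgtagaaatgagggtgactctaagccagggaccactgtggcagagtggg

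The next 3 windows are the strongest of those with the word TNCACTGA among the 10 intervals between genes that hold the most intergenic summits. Capitals mark the word or its reverse complement, TCAGTGTA or TCAGTGCA. The word was picked after its values in these data were seen. Towards the summit at the centre means the plus direction when the word lies left of the summit and the minus direction when it lies right. The windows were chosen for this direction, so it is not a result here. The middle of the word stood -68.5, 37.5 and 69.5 bp from the summit in the order printed, where a negative number is to the left, and the signals were 382, 358 and 341.
CG6168 to CG6163, chr3L:11325776-11325975: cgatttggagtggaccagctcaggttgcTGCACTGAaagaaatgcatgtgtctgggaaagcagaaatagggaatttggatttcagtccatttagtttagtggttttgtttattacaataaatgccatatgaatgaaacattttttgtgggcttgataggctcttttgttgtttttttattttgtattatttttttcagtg
CG18404 to heca, chr3R:30272650-30272849: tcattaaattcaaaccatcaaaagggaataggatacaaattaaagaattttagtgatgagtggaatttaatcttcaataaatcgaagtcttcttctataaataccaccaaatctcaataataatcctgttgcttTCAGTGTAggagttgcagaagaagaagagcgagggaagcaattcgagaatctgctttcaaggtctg
NijA to CG43245, chr3L:10752717-10752916: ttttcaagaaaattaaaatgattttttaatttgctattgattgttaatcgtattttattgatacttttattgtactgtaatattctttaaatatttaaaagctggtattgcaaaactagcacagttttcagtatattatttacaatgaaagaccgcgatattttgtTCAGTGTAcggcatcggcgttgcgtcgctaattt

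The last 3 windows, 300 bp long, were chosen after their values were seen, because they hold the word on both sides of the summit with each copy pointing inwards. The copies stood -73.5 and 86.5 bp, -114.5 and 33.5 bp, and -110.5 and 46.5 bp from the summit in the order printed. Their signals were 216, 177 and 127. The last of them lies between slp1 and slp2, forkhead-domain genes of segmentation.
AOX4 to CG43335, chr3R:15566983-15567282: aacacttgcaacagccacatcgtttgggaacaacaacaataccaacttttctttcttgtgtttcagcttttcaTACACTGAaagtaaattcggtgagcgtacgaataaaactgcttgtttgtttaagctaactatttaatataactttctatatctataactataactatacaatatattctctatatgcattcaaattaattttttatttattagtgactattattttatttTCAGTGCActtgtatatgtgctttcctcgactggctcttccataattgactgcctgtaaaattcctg
Pgant2 to CG2772, chr2L:3444866-3445165: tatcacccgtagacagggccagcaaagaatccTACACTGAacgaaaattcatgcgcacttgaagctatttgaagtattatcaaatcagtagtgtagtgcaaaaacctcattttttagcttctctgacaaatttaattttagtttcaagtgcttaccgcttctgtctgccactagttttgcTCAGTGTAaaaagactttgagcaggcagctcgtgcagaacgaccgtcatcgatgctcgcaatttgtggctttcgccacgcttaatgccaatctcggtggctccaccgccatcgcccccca
slp1 to slp2, chr2L:3832392-3832691: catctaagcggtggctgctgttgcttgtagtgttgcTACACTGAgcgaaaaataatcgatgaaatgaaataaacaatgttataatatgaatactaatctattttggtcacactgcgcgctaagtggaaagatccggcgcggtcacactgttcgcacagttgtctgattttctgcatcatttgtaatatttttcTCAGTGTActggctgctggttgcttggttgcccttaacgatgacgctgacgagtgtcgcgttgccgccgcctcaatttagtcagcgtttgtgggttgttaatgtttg

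TNCACTGA or its reverse complement lay in 138 of 918 intergenic windows of 200 bp, 15% (12.8 to 17.5%). It lay in 107 promoter windows (5.19%), in 282 intronic windows (10.7%) and in 51 of 1701 windows 1000 bp to either side of intergenic summits (3.0%). Of 175690 tiles of the same length across eligible sequence, 2.62% held it. The intergenic share was above each of these. The word was chosen for its high share in these windows over the flanks, so this is a description and no test. On the lists of replicates 1 and 2, which come from the same libraries, the intergenic share was 16 and 17.1%. The open position was mostly A or G: TACACTGA was in 53 intergenic windows (5.77%, against 0.529% of flanks) and TGCACTGA in 75 (8.17%, against 0.882%). TCCACTGA was in 6 (0.654%, against 0.647%) and TTCACTGA in 6 (0.654%, against 0.941%). The word was found by ranking the 254 words of 8 bases present in at least 40 intergenic windows by their share over that of the flanks. Of the 10 highest, 8 held CACTG or its complement, led by CACTGAGA with 70 windows (7.63%, against 0.470% of flanks).

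The word had a preferred direction. Within 150 bp of intergenic summits, 169 sites read towards the summit and 27 away from it, so that 86.2% pointed inwards. The split was 123 to 17 on the list of replicate 1 (87.9%) and 118 to 16 on that of replicate 2 (88.1%). Intronic summits had 359 sites towards and 65 away (84.7%), and promoter summits had 127 and 41 (75.6%). An inward word was present at 154 intergenic summits, 16.8% (14.4 to 19.4%), against 337 intronic (12.8%) and 117 promoter summits (5.68%), and 12 intergenic summits had one on each side. The middle of the inward sites lay at a median of 75.5 bp from the summit (quartiles 53.5 and 97.5 bp). At 75 to 100 bp there were 50.1 inward and 3.27 outward sites per 1000 intergenic summits, against 36.9 and 5.71 per 1000 intronic summits and 20.9 and 0.971 per 1000 promoter summits.

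**Figure D1:**
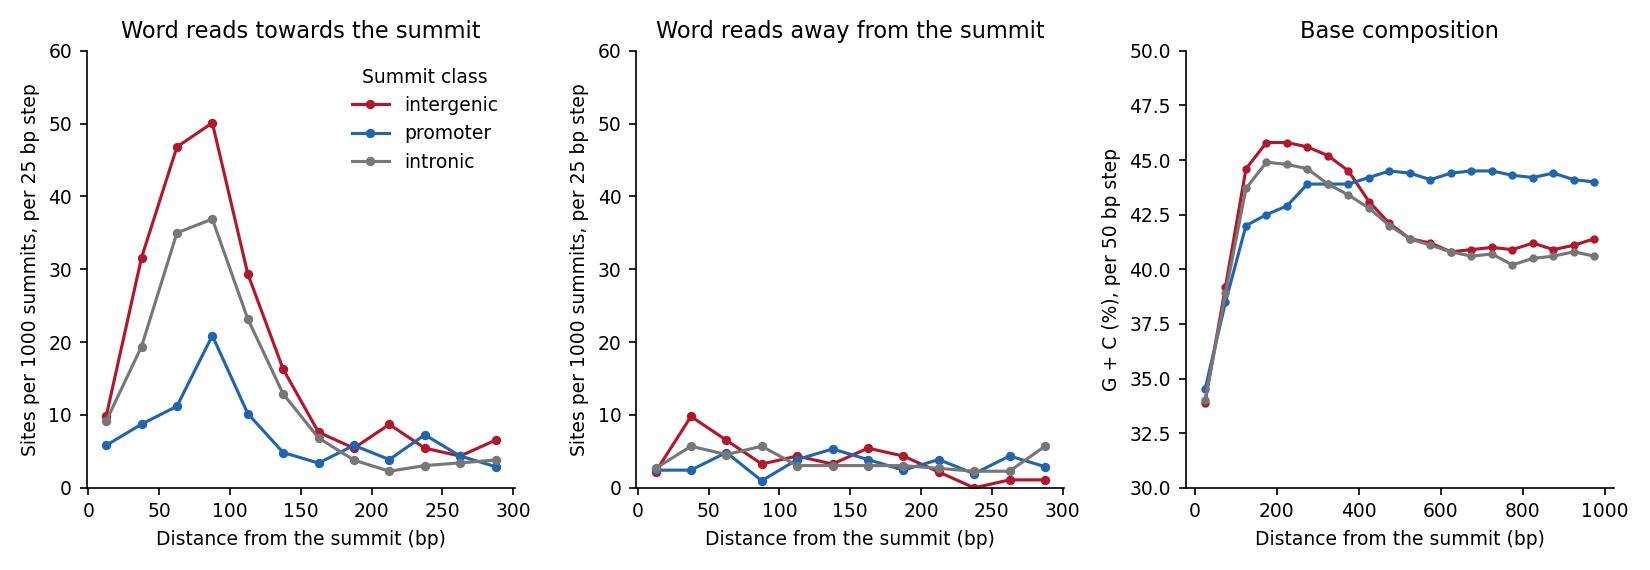
Sites of the word TNCACTGA per 1000 summits in steps of 25 bp from the summit, for those that read towards it and away from it, and GC content in steps of 50 bp, for intergenic, promoter and intronic summits. Inward sites are most frequent at 75 to 100 bp in the intergenic class (50.1 per 1000), and GC content is lowest within 50 bp of the summit in all 3 classes.

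The 169 inward sites around intergenic summits went on in a purine-rich run. The base after the word was A in 49.1% and G in 45.0%, the next was A in 76.9%, and bases 4, 5 and 6 were A in 78.1, 85.8 and 77.5%. Of 5012 sites of the word in eligible sequence, 186 lay within 150 bp of an intergenic summit, or 3.71%, so most copies had no intergenic summit within that distance. Soft-masked letters, which the genome file marks as repeats, held 41.3% of the 196 sites within 150 bp of intergenic summits, counted summit by summit, against 18.3% of all sites in eligible sequence. The part of repeats in the word's share was not tested.

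Summits with an inward word had the higher median signal, but none of them was among the 10 strongest. The median was 120 (quartiles 86.7 and 184, highest 386), against 99.9 for the 764 others (76.7 and 150, highest 1702). Split into 5 equal groups by signal, from the strongest to the weakest, 21.7, 20.1, 16.9, 15.8 and 9.29% of intergenic summits had the inward word. The share was 20.5% (16.7 to 24.8%) of summits on both replicates' lists, 16.1% of those on 1 and 11.3% (7.63 to 15.9%) of those on neither. Across arms it ran between 14.1 and 18.9%, and in and out of clusters it was 16 and 17.1%.

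The base composition changed over a short stretch. GC content averaged 33.9% within 50 bp of intergenic summits, 44.6% at 100 to 150 bp, 45.8% at 150 to 250 bp and 41.4% at 950 to 1000 bp, so the summit lay in an AT-rich dip with GC-richer shoulders. Promoter summits had 34.5, 42.0 and 44.0% within 50 bp, at 100 to 150 bp and at 950 to 1000 bp, and intronic summits had 34.0, 43.7 and 40.6%. Whole windows of 200 bp had a median GC content of 35.0% at intergenic, promoter and intronic summits alike, against 42.0% in the intergenic flanks and 41.0% in the tiles. The median intergenic window was soft-masked over 20% of its length, and in 43 windows more bases were masked than not.

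Motifs of known factors were searched on both strands in the same windows. Of 38 patterns, 15 had at least 1.5 times the share of the flanks or at most 0.67 times it, and with windows of 300 bp 8 did. Those lower in intergenic windows were the E-box CAGCTG of bHLH factors (4.79%, against 7.88% of flanks), the Polycomb recruiter motif of Pho, CNGCCAT (6.43%, against 9.82%), the STAT motif TTCNNNGAA (4.79%, against 7.52%) and the TCF motif CTTTGAT (3.16%, against 5.0%). The same held for the Nk2 motif CAAGTGG (1.85%, against 3.64%), the Runx motif TGTGGTT (1.74%, against 3.17%), the Zelda motif CAGGTAG (0.436%, against 1.29%) and the Ftz-f1 motif CAAGGTCA (0.109%, against 0.412%). The CRE palindrome TGACGTCA was in 0 of 918 windows, against 0.529% of flanks. Over the tiles these 9 patterns had shares of 6.86% (E-box), 9.66% (Pho), 6.09% (STAT), 3.87% (TCF), 3.55% (Nk2), 2.99% (Runx), 0.887% (Zelda), 0.379% (Ftz-f1) and 0.306% (CRE), each above the intergenic share. The windows are poorer in G and C than their flanks, as given above, and the part of base composition in these shares was not tested.

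Higher in intergenic windows than in their flanks were the Ttk motif AGGATAA, with 23 windows (2.51%, against 1.59% of flanks), and 5 patterns found in 6 windows or fewer. These were the M1BP element GGTCACAC in 6 windows (0.654%, against 0.235%), the ecdysone response core GGTCANTGA in 5, the CTCF core AGGTGGCG in 5, the DRE TATCGATA in 4 and the su(Hw) core TGCATACTT in 4. The tile shares were 2.28% for Ttk, 0.267% for M1BP, 0.347% for the ecdysone core, which shares the letters GGTCA with the Ftz-f1 motif, and 0.335% for CTCF. Such counts give wide intervals, and the tile shares of the DRE (0.439%) and of the su(Hw) core (0.488%) were at least as high as those of intergenic windows (0.436% each). Of motifs tied to Gug through its partners, the Tailless motif AAGTCAA was in 40 windows (4.36%, against 5.35% of flanks and 4.63% of tiles). The GAGA element GAGAG was in 212 (23.1%, against 19.6% of flanks and 20.7% of tiles), and in 29.5% of the windows of the 183 strongest. Promoter and intronic windows held it in 24.3 and 24.4%. A match is a stretch of letters and does not show that the factor binds.

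Intergenic summits had a somewhat lower median signal than promoter and intronic summits. Their median signal was 105 (quartiles 78.2 and 154, range 2.09 to 1702), against 119 for the 2060 promoter summits 111 for the 2626 intronic summits over 500 bp from a transcript start and 103 for the 146 exonic ones. The ratio of intergenic to promoter medians was 0.878, and on the replicates' own lists it was 0.811 and 0.866. The ratio to intronic medians was 0.942, and 0.909 and 0.960 on the replicates' lists. A signal of at least 200 was reached by 15.7% of intergenic summits, against 27.0% of promoter and 20.1% of intronic summits, and one of at least 500 by 7 (0.763%), against 6.84 and 2.63%. At 1000 or more there were 3 intergenic summits (0.327%), against 27 promoter (1.31%) and 9 intronic ones (0.343%). With all 5750 summits split into 5 equal groups, from the strongest to the weakest, the intergenic share was 11.1, 14.6, 17.4, 18.1 and 18.6%.

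**Figure D2:**
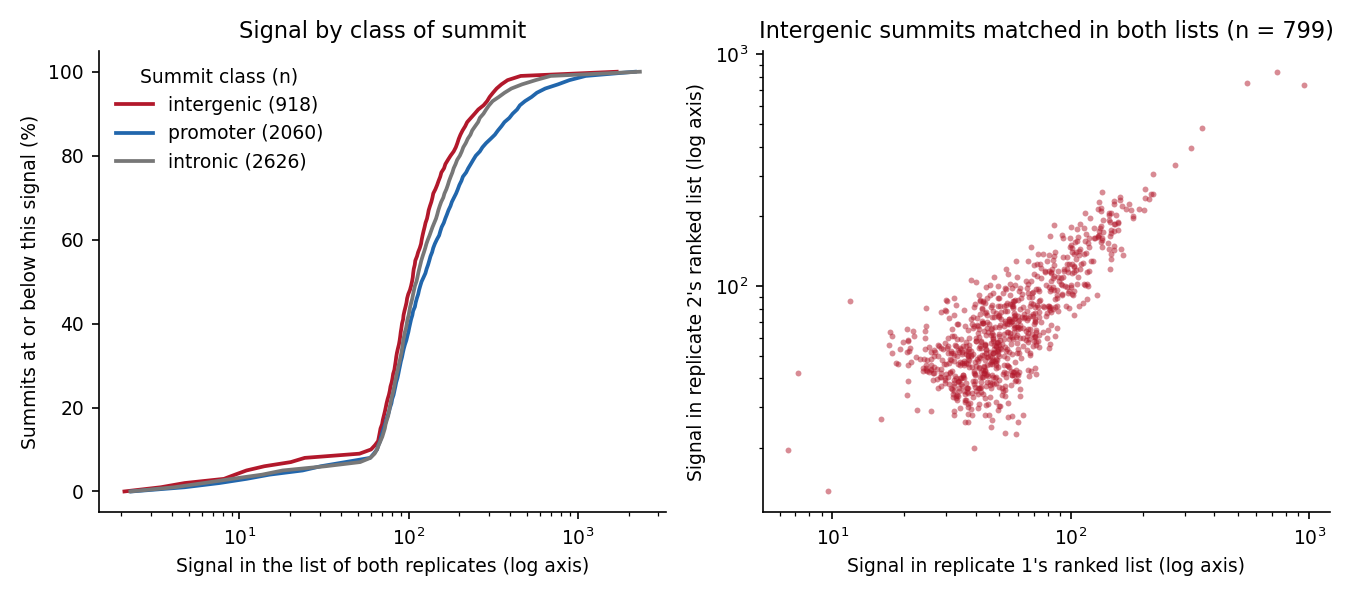
Left, cumulative share of summits by signal (log axis, the authors' value without a stated unit) for intergenic, promoter and intronic summits; right, signal of 799 intergenic summits in replicate 1 against replicate 2 (log axes, each in its own list's units). The medians on the left are 105, 119 and 111, and the points on the right rise together, with a Spearman's rho of 0.723.

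The replicates gave like orders but unlike lists. With matching within 100 bp of a summit on a replicate's thresholded list, 409 intergenic summits were matched in both lists (44.6%, 41.3 to 47.8%), 131 in replicate 1 alone, 130 in replicate 2 alone, and 248 in neither (27.0%). Summits on both lists made up 53.5% of promoter and 50.1% of intronic summits. Those on both lists were the stronger ones, with a median signal of 163, against 92.5 for replicate 1 alone, 94.6 for replicate 2 alone and 68.2 for neither. In the longer ranked lists, 799 intergenic summits were matched in both replicates and 59 in neither. Over the 799 Spearman's rho between the replicates' signals, each ranked within its own list, was 0.723 across summits, which share their libraries and are not independent. For promoter summits rho was 0.840 and for intronic summits 0.778.

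With a cut at 40, chosen after the values were seen, 78 intergenic summits (8.50%) had a lower signal, from 2.09 to 34.0, while the 840 others began at 40.1. Each of the 78 lay 199 to 294 bp (median 203 bp) from another summit, and for 77 of them that neighbour was stronger. None of the 78 was on both replicates' lists, 4 were on 1 and 74 on neither, against 409, 257 and 174 of the 840 others. Their windows had a median GC content of 46.5%, against 34.5% for the others, and all 78 peaks were 336 bp wide. Promoter and intronic summits held such weak summits at like shares, 6.94 and 6.44%. Counts of summits per cluster below include them, and are given without them where that matters.

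The 10 strongest intergenic summits were all on both replicates' lists. The highest, at 2R 22678385, had a signal of 1702 over both replicates and of 949 and 735 in replicates 1 and 2. It lay 5173 bp from RYBP, whose protein binds Polycomb group proteins, and 6570 bp from Ppa, an F-box protein gene. The next, at 2R 13035341, had 1580 over both and 729 and 842 in the replicates, 27430 bp from Su(z)2, a Polycomb group gene, and 9354 bp from CG13323. Both ranked among the 10 strongest of all 5750 summits, and only 4 of the 100 strongest were intergenic.

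The summit at 2L 2202406, printed above, had a signal of 1309 over both replicates and 547 and 753 in replicates 1 and 2, and lay between COX7AL2 and CG31668. At 3L 10776566 the signal was 837, with 356 and 479 in the replicates, 3167 bp from CG43245. The summit at 3R 16222499 had 709, with 319 and 395, and lay 3152 bp from tara, a regulator of homeotic gene expression and sleep, and 17249 bp from mtSSB, a mitochondrial single-stranded DNA binding protein. Below these 5 the signal dropped to 600 at 3R 5113294, next to CG43131 and RabGGTa, a subunit of the Rab prenylating enzyme. It was 537 at X 1277186, 1902 bp from Atf3, a bZIP transcription factor. Signals of 469 were reached at 2L 4030648, 729 bp from ed, which encodes the cell adhesion protein Echinoid, and at 3R 30265622, between CG18404 and heca, the headcase gene of imaginal cells. The tenth, with 463 at 3L 9855980, lay 695 bp from RasGAP1, which encodes a Ras GTPase activating protein.

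Intergenic summits lay nearer to transcript starts than eligible bases did. Their median distance to the nearest start was 3102 bp (quartiles 1395 and 5880 bp), with 2915 bp on the list of replicate 1 and 2888 bp on that of replicate 2, against 5942 bp for all eligible bases. The density was 47.4 summits per Mb of eligible sequence (39.7 to 56.2) at 500 to 1000 bp, 43.0 at 1 to 2 kb, 34.2 at 2 to 5 kb, 24.7 at 5 to 10 kb, 15.6 at 10 to 20 kb and 3.28 (2.14 to 4.80) beyond 20 kb. Each step was lower than the one before on both replicates' lists as well, from 33.6 to 2.27 in replicate 1 and from 32.6 to 1.76 in replicate 2. Soft-masked letters made up 20.4% of eligible bases in the nearest bin and 41.5% in the farthest. Per Mb of unmasked sequence the densities still ran from 59.6 to 5.60. Eligible sequence also includes long stretches of arms with no intergenic summit, described below, and their part in this fall was not tested. Signal varied less, with medians of 116 in the nearest bin and between 96.4 and 106 in the other bins.

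**Figure D3:**
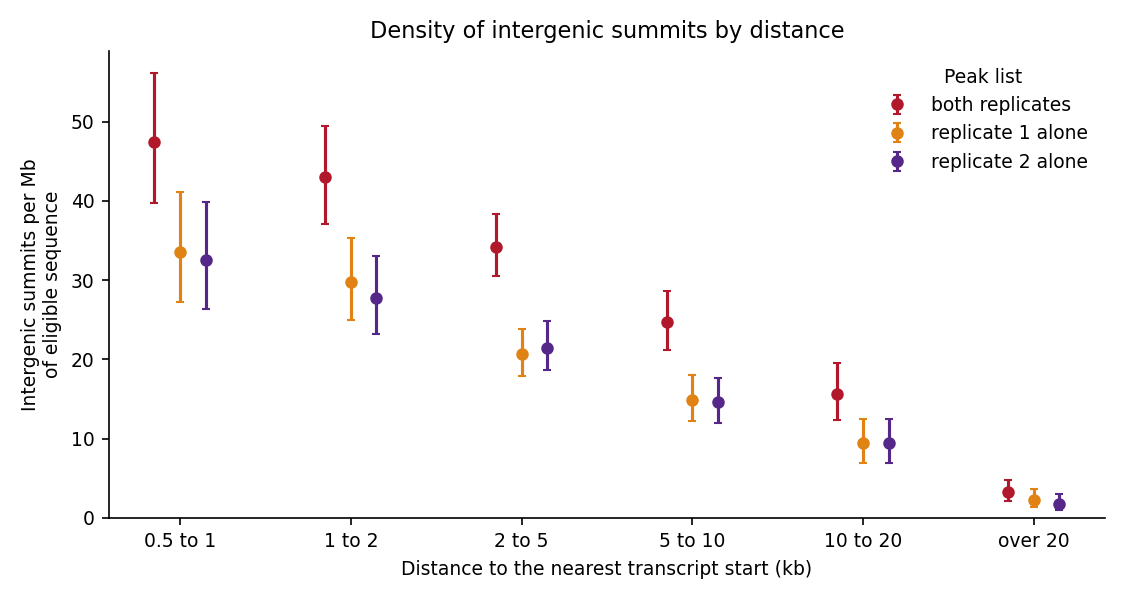
Intergenic summits per Mb of eligible sequence in 6 bins of distance to the nearest transcript start (kb), for the list from both replicates and for each replicate alone; bars are 95% exact Poisson intervals. All 3 lists fall from the nearest bin (47.4, 33.6 and 32.6 per Mb) to the farthest (3.28, 2.27 and 1.76 per Mb).

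A few values show the edge of the rule at 500 bp. The members nearest to it lay 502, 505 and 509 bp from a start and had signals of 73.9, 91.3 and 34.0. Just outside it were summits at 498, 495 and 493 bp with signals of 102, 184 and 766. In all, 968 summits lay outside genes but within 500 bp of a start.

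The farthest summits were few. The farthest of all, at 2L 20204789, lay 43250 bp from a transcript start, between CG10651 and CG17571, with a signal of 155 and of 47.7 and 110 in replicates 1 and 2. Its window was 92.5% soft-masked, and a weak summit of signal 3.42 lay 212 bp from it. At 3L 1139586, 37690 bp from a start, a summit with signal 131 lay between bab1 and bab2, paired BTB genes of leg and abdomen patterning, 843 bp beyond the end of bab2. The last pair of the 5 farthest, with signals of 104 and 96.9, stood in the long interval between NijA, a ninjurin gene, and CG43245.

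Genes faced the summits slightly more often with their starts. The nearest gene edge was a 5′ end for 463 intergenic summits, 50.4% (47.1 to 53.7%), against 45.5% of eligible bases, and the density was 29.0 per Mb near 5′ ends and 23.8 near 3′ ends. Gaps between divergent genes, where both neighbours start at the gap, held 230 summits, 25.1% (22.3 to 28.0%), against 20.3% of eligible bases. On the replicates' lists the divergent share was 28.0 and 26.1%. Density was 31.1 per Mb in divergent, 24.5 in tandem and 25.4 in convergent gaps. When protein-coding neighbours alone were counted, the shares were 29.2% divergent, 51.9% tandem and 19.0% convergent, against 23.3, 49.7 and 21.9% of bases.

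The arms differed. Chromosome arm 3L held 324 intergenic summits, 35.7 per Mb of eligible sequence (31.9 to 39.8), 3R held 27.2, 2L 25.2, 2R 17.2 and X 16.6 (13.3 to 20.4). The eligible sequence includes long stretches without an intergenic summit, described below, and their part in the order of the arms was not tested. On the list of replicate 1 the densities of 3L and X were 24.5 and 11.9 per Mb, and on that of replicate 2 they were 22.4 and 9.41. On 3L, 24.6% of all summits were intergenic, against 7.59% on X, although summits of all kinds were no denser on 3L, with 46.8 per Mb against 49.2 on X. Unmasked sequence gave the same order of these arms, 50 per Mb on 3L and 23.1 on X. The ratio of the density on 3L to that on X was 2.15. It was 1.55 when the summits of the 10 intervals with the most summits were left out but their sequence was kept. Ties at 7 summits were settled by summed signal. Of these intervals 8 lay on 3L and none on X, so leaving them out could only lower the ratio. Chromosome 4 held 1 summit of any kind and no intergenic one in 0.245 Mb of eligible sequence, for which the upper bound of the interval is 15 per Mb.

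**Figure D4:**
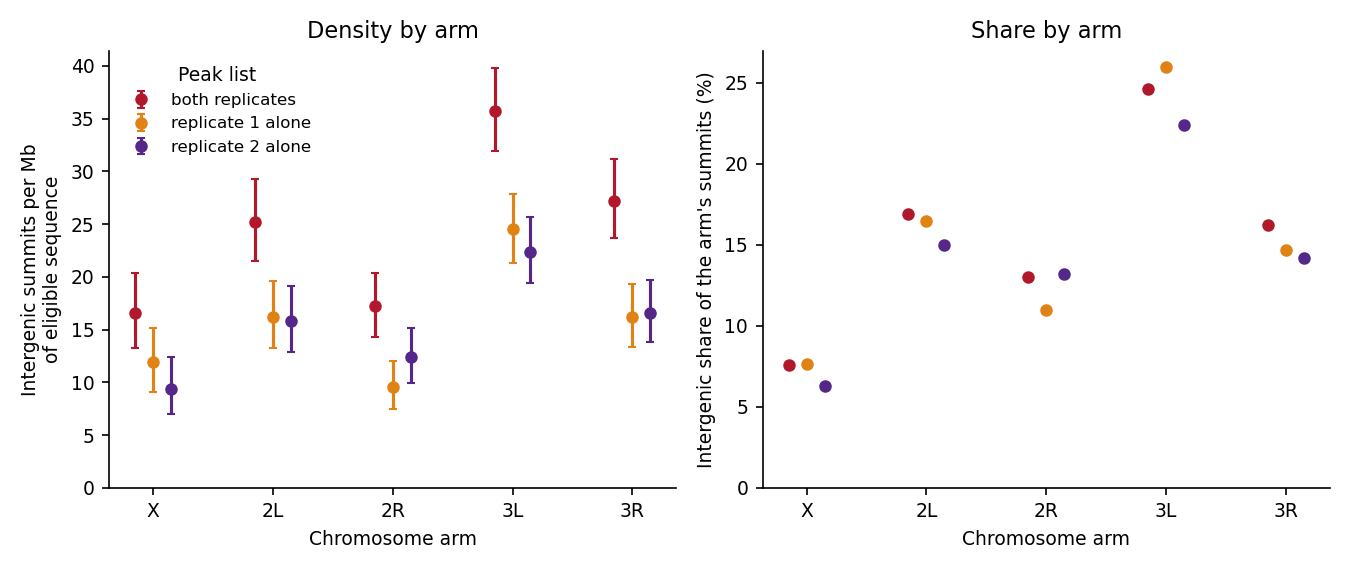
Left, intergenic summits per Mb of eligible sequence on 5 arms with 95% exact Poisson intervals; right, the share of each arm's summits that are intergenic, for the list from both replicates and for each replicate. Arm 3L is highest in all 3 lists (35.7, 24.5 and 22.4 per Mb) and X has the lowest share (7.59, 7.65 and 6.29%).

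Within arms the summits were bunched. Of 138 windows of 1 Mb, 25 held no intergenic summit, and the 10 fullest held 280, or 30.5% of all. Many of the empty windows lay together at the end of an arm. On 2R the first window with a summit began at 6 Mb, and on 3R at 4 Mb. No window held one from 22 Mb onwards on 2L or from 23 Mb onwards on 3L. The fullest lay on 3L, with 50 summits between 11 and 12 Mb (192 per Mb of eligible sequence), 41 in the first Mb (133 per Mb) and 38 between 10 and 11 Mb (95.2 per Mb). The median distance from an intergenic summit to the nearest other summit of any class was 1944 bp, and 335 (36.5%) had one within 1000 bp. These include the 78 weak summits described above. For the 840 with a signal of 40 or more the median was 2351 bp, with weak summits still counted as neighbours.

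Most gaps between genes held no summit. Of 6516 gaps with eligible sequence, 528 held at least 1, of which 325 held exactly 1 and 81 held 3 or more, 349 summits in all. The share of gaps with a summit was 3.99% for gaps of up to 5 kb, 14.6% at 5 to 10 kb, 21.5% at 10 to 20 kb, 27.6% at 20 to 50 kb and 11.1% beyond 50 kb. Per Mb of eligible sequence there were 48.9, 35.9, 34.2, 20.6 and 5.24 summits in these bins, so density fell as gaps grew longer. The 72 gaps over 50 kb had a summit in 8 cases, and these held 43. The stretches of arms without a summit are counted here too, and their part in these densities was not tested.

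Clusters were defined as 3 or more intergenic summits in 1 gap, each at most 5000 bp from the next. There were 63, with 250 summits or 27.2% (24.4 to 30.2%) of all, and 35 of them were on 3L. Without the 78 summits of low signal, 45 clusters held 182 of 840 summits, 21.7% (18.9 to 24.6%). Clustered summits were about as strong as the others, with median signals of 106 and 104, and 46.0 and 44.0% were on both replicates' lists. A cluster of 9 summits within 9945 bp stood on 3R between CG18404 and heca, with signals from 93.0 to 469, and 6 of the 9 were on both lists. Between hng3 and CG13898 on 3L, 9 summits spanned 22326 bp and another 7 spanned 10513 bp. Next to sty, whose product Sprouty restrains receptor tyrosine kinase signalling, 6 summits stood within 4776 bp, with signals from 118 to 323, and all 6 were on both lists.

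Intervals between neighbouring protein-coding genes, in which noncoding genes may lie, give the loci their names. Such intervals with a summit numbered 465, and 34 with 5 or more summits held 248 of the 918, or 27.0%. The fullest, hng3 to CG13898, held 18 summits over 47.9 kb with a median signal of 135 (67.5 to 391), of which 15 were on both replicates' lists. The interval from Ids, a lysosomal sulfatase gene, to sty held 15 over 21.1 kb (5.29 to 323), with 9 on both lists. CG18404 to heca held 13 over 23.8 kb, NijA to CG43245 held 12 over 75 kb with 9 on both lists, and CG7320 to CheA75a held 12 over 48.5 kb with 8. These intervals were filled in each replicate on its own, with 16 and 17 summits of hng3 to CG13898, and 10 and 13 of Ids to sty, matched on the lists of replicates 1 and 2.

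Further intervals among the 10 fullest held 7 to 9 summits each. CG17154 to vers held 9, of which 2 were on both lists, and CG6163 to CG11726 held 9, of which 5 were. CG6168 to CG6163, the source of a window printed above, held 7 with signals up to 382, and CG11041 to CG16894, on 2R, held 7 over 64.8 kb. Together the 10 intervals held 111 summits, 12.1% of all.

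**Figure D5:**
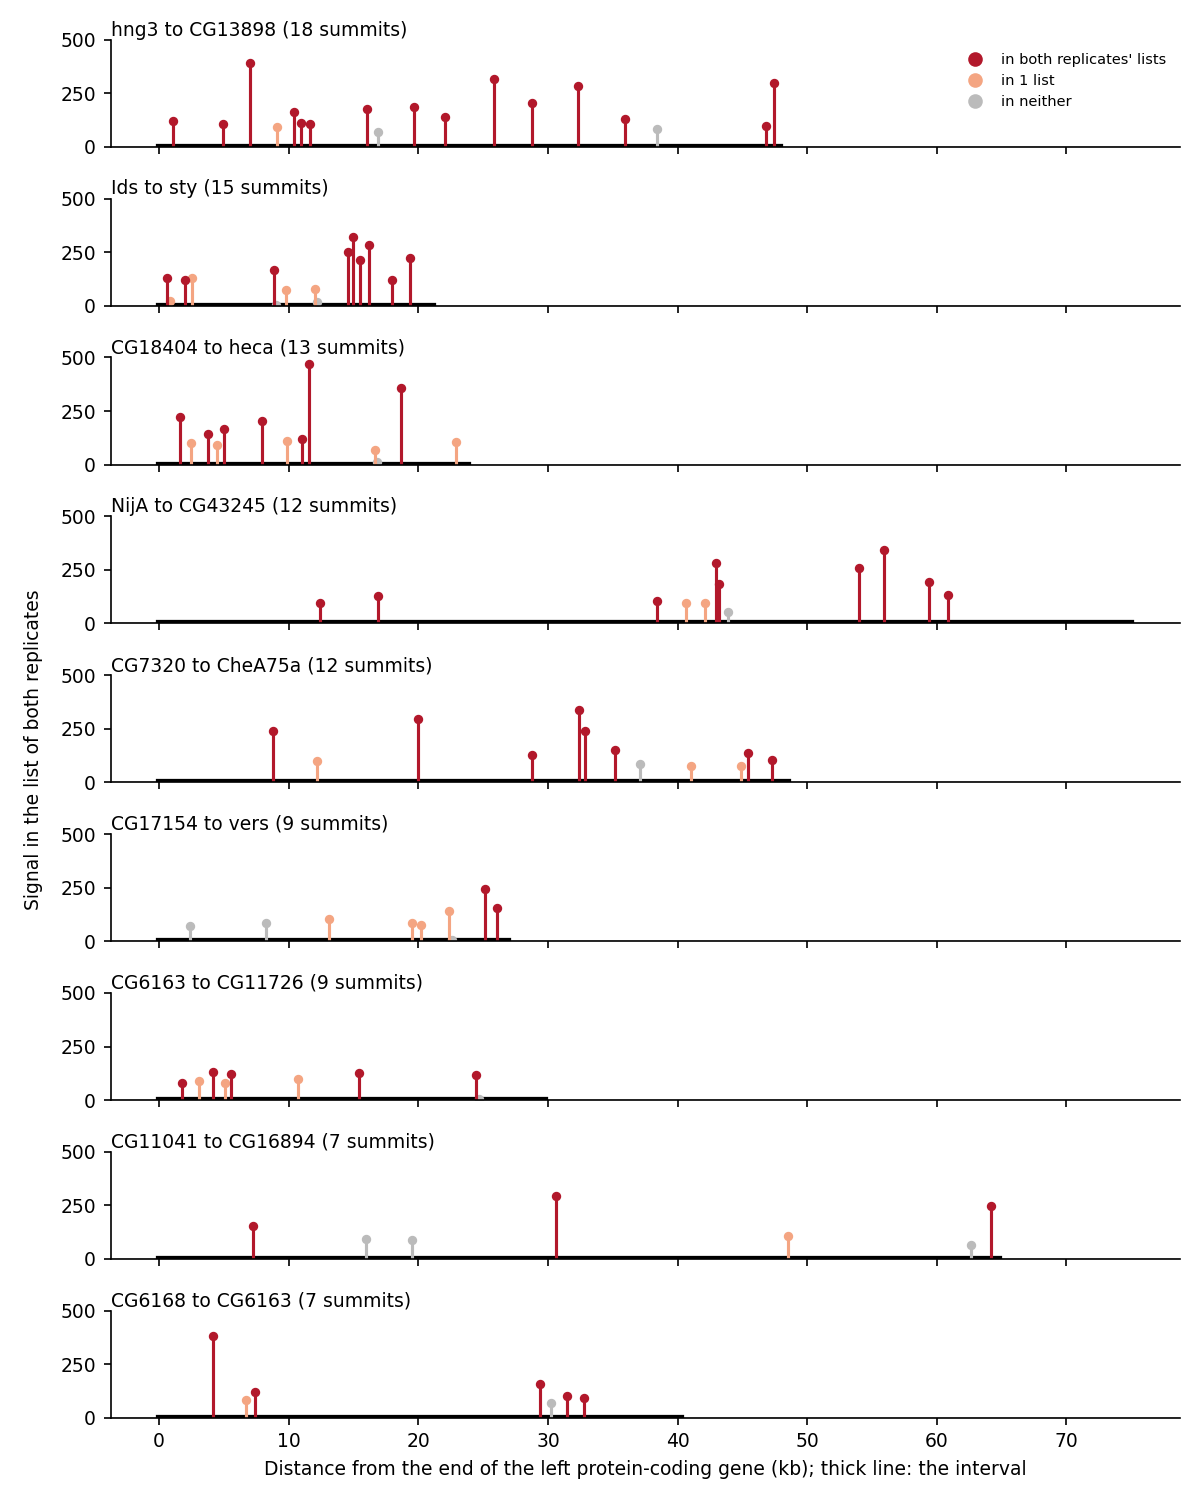
Of the 10 intervals between neighbouring protein-coding genes with the most intergenic summits, the 9 named in the text, each stem a summit at its distance from the left gene (kb) with its signal as height, coloured by whether it was on both, 1 or neither of the replicates' lists. The interval from hng3 to CG13898 has 18 stems, 15 of them on both lists, and that from Ids to sty has 15, 9 of them on both.

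A protein-coding gene was next to an intergenic summit when no other protein-coding gene lay between them. This held for 841 of 13945 genes (6.03%), with 638 on the list of replicate 1 and 625 on that of replicate 2. Genes with more eligible sequence beside them have more chance to be counted: the 841 had a median of 13.0 kb, against 0.0650 kb for all genes. Of the 7865 genes with any eligible sequence beside them, 10.7% were next to a summit. A promoter summit was present at 167 of the 841 (19.9%), against 15.6% of the 13104 other genes. When each summit was given to the gene with the nearest protein-coding start alone, 516 genes were named. In the lists below, a signal at a gene is the highest of the intergenic summits next to it, at any distance. The gene on the other side of that summit may be nearer.

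Of 21 gene lists, 2 of patterning genes had the highest shares on the list from both replicates. Gap and pair-rule genes, which set up segments, had 9 of 20 next to an intergenic summit (45.0%, 23.1 to 68.5%), and leg and wing patterning genes had 13 of 30 (43.3%, 25.5 to 62.6%), against 6.03% of all genes. Their median adjacent eligible sequence was 22.7 and 20.6 kb, and per Mb of it there were 38.0 and 40 summits, against 25.8 for all genes. These densities rest on 21 and 23 summits. On the list of replicate 1 the counts were lower, 5 of the gap and pair-rule genes and 6 of the leg and wing genes, and on that of replicate 2 they were 6 and 9. In the gap and pair-rule list the strongest adjacent signals were 161 at hry, the hairy gene, with 7 summits beside it, 143 at odd and 127 between slp1 and slp2. In the leg and wing list they were 211 at drm, 178 at C15 and 143 at odd and its relative sob. Hox and cofactor genes had 3 of 14, with signals of 191 at tsh, 123 at hth and 78.2 at abd-A, and 15.1 summits per adjacent Mb, and 5 and 3 genes on the lists of replicates 1 and 2. Eye and antenna genes had 3 of 13, namely oc, Optix and so, and 17.5 summits per adjacent Mb. The densities of the Hox and eye lists rest on 5 and 3 summits.

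The 6 lists of signalling pathways had shares of 20 to 36.4%, against 6.03% of all genes and 10.7% of genes with eligible sequence beside them. Per Mb of adjacent eligible sequence they had 125 summits (Dpp), 107 (Fat and Hippo), 93.8 (Notch), 50.9 (Hedgehog and JAK-STAT), 40.6 (EGFR) and 34.9 (Wingless), against 25.8 for all genes. These rest on 9, 12, 13, 8, 21 and 5 summits in that order, and 15 of the 21 lay next to sty. No interval was computed for them. Density also fell with gap length, as given above, and its part here was not tested. Fat, Hippo and planar polarity genes had 8 of 22, with 8 and 5 on the lists of replicates 1 and 2, and signals of 404 at ds, the cadherin ligand of Fat, 316 at ex, an upstream Hippo component, and 304 at Fbxl7, an F-box partner of Fat. Hedgehog and JAK-STAT genes had 6 of 19, with 320 at ptc, the Hedgehog receptor, and 144 between the cytokine genes upd1 and upd3. The Notch list had 4 of 20, with 352 at E(spl)mbeta-HLH, a bHLH repressor, 302 at fng, which glycosylates Notch and had 6 summits beside it, and 233 at Ser, a ligand. The EGFR list had 4 of 19, led by sty with 323 and aop, the Yan repressor, with 201. The Dpp list had 4 of 18, led by the ligand dpp itself with 241 and the glypican dally with 227. The Wingless list had 4 of 20, with 203 at the receptor fz and 194 at Wnt10 and Wnt6.

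Lists of regulators and tissue genes had shares of 16.1 to 34.8%, against the same 6.03%. Their densities per adjacent Mb were 140 (corepressor, Polycomb and Trithorax), 63.9 (ecdysone and nuclear receptor), 47.1 (muscle and heart), 31.3 (neurogenic) and 26.0 for both the axon guidance and the neuronal lists, against 25.8 for all genes. In that order they rest on 13, 18, 19, 18, 21 and 6 summits. Ecdysone response and nuclear receptor genes had 8 of 32 (25%), with 327 at Blimp-1, an ecdysone-induced repressor of prepupae, 196 at Eip93F and 164 at ImpL2. The summit with 327 lay 19030 bp from Blimp-1 and 3653 bp from its other protein-coding neighbour. Corepressor, Polycomb and Trithorax genes had 6 of 29 (20.7%), with the summits of RYBP and Su(z)2 given above and 310 at Psc. Muscle and heart genes had 8 of 23, with 230 at the T-box pair H15 and mid and 207 at kon. Neurogenic genes had 6 of 30, led by vvl with 197 and 7 summits. Axon guidance and adhesion genes had 10 of 39, with 265 at robo2, 223 at 18w with 8 summits and 154 at shg, the E-cadherin gene. Neuronal signalling genes had 5 of 31, with 213 at dnc, 195 at GluRIIB and 127 at brp. The summit with 213, at X 3371497, lay beyond the end of dnc at 3343767 and 1662 bp from the nearest transcript start. The summit with 154, at 2R 21027698, lay 2343 bp from the nearest start, while shg spans 21049654 to 21057197.

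The other lists had shares of 0 to 12.1%, on either side of the 6.03% of all genes. Cytoplasmic ribosomal protein genes had 0 of 57, which allows up to 6.27%, with a median of 0.0300 kb of adjacent eligible sequence, while 23 of them had a promoter summit. Cuticle protein genes had 1 of 38, Cpr50Ca with 93.2. Clock and heat shock genes had 2 of 25, dco with 113 and tim with 85.0, and cell death and autophagy genes had 3 of 25, Atg13 with 355, hid with 257 and Diap1 with 73.9. Odorant and gustatory receptor genes had 7 of 58 (12.1%, 4.99 to 23.3%), at 50 summits per adjacent Mb. On the lists of replicates 1 and 2 the counts were 4 and 3. The highest signals were 214 at Gr93a and 164 at Or67d, each next to 7 summits. Those of Or67d were far from it: the gene ends at 10274624, and the first summit of its 138 kb interval was at 10369001. Or88a and Or7a were counted through 1 weak summit each, with signals of 34.0 and 20.9. The densities were 11.3 for cuticle, 29.7 for clock and heat shock and 26.4 for cell death and autophagy genes. They rest on 1, 2 and 8 summits, and that of the receptor genes on 20.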

How the data were processed

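Per the labels, GFP antibody was used for ChIP-seq of whole Gug-GFP prepupae in 2 biological replicates. The authors deposited peak lists on dm6, thresholded and ranked by IDR, for each replicate and for both. According to the README files deposited with them, each list also drew on a control alignment, and the thresholded lists drew on 1 more file of regions. Aligner, peak caller, settings and depth per library are not given in the sources used here. The signal per peak is the authors' value, without a stated unit, comparable within 1 list at most, and the score column of the deposited ranked list, −log10 of the global IDR, served a stricter threshold. In the ranked lists of the whole series, 4 columns of per-replicate signal were not used.

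Of 5753 rows, 3 lay off the arms. Summits were placed against genes of Ensembl release 115 (BDGP6, transposable elements left out) with Python 3.11.15, numpy 2.4.6, scipy 1.17.1, pandas 2.3.3 and matplotlib 3.10.9. Promoter means within 500 bp of a transcript start. Summits matched between lists within 100 bp. Flank windows of 200 bp lay 1000 bp away and were left out where a summit was within 200 bp of their middle, and could lie inside genes. Steps were tested on simulated data. Members, lists and motifs were chosen with earlier results of these data known. Of 578 names in 21 lists, 555 are current symbols of a gene, 17 are older ones and 6 were not matched.

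Genes are named by a rule: protein-coding neighbours of the 10 strongest summits, of the 10 intervals with the most summits and of the 5 farthest summits, and up to 3 genes of each list with the highest adjacent signal. Ties between intervals were settled by summed signal. Printed windows follow signal among the strongest summits and among those of the 10 fullest intervals that hold the word, except that the 3 with the word on both sides, and the genes beside them, were chosen after their values were seen. The alternatives left out either replicate, used the authors' conservative list, changed the IDR, distance, cluster, window and matching settings, kept transposable elements, or dropped summits close to a stronger one. The result for 1 of the 10 intervals is not reported here.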

Additional observations from a re-analysis of the deposited data

How the results depend on the processing

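Each of 12 results was computed under 84 alternative values in all, of which 39 stayed within a set spread and 45 moved beyond it. The spread was 1 SD between the replicates' lists, or 1.5 times for a count. For the share on both replicates' lists it was 3.27 percentage points, taken from the binomial interval. Changes of direction were not scored. Values that leave out either replicate come from the other replicate's own list: the intergenic share was 14.5 to 15.4%, the median distance to a start 2888 to 2915 bp, the share in clusters 19.4 to 20.2%, the signal ratio to promoters 0.811 to 0.866, the divergent share 26.1 to 28.0%, the median GC content 34.5 to 35.0%, the share with the word 16 to 17.1% and the inward share of word sites 87.9 to 88.1%. At a global IDR of 0.001 or less, these were 14.9%, 2956 bp, 24.3%, 0.822, 27.2%, with 17.5% of windows holding the word and 87.5% of its sites inward. In the authors' conservative list, 30.9% of summits were in clusters, 26.9% in divergent gaps, and 88.2% of word sites were inward. The density on 3L was 1.89 times that on X there, against 2.15 in the main list and 1.55 without the summits of the 10 fullest intervals. With a distance over 1000 or 2000 bp the intergenic share was 13.6 or 10.2% and the median distance 3662 or 4889 bp, and with transposable elements kept as genes that distance was 2858 bp. Counting any overlap of peaks by 1 bp put 48.8% of summits on both lists. Cluster shares were 16% at 2000 bp and 33.2% at 10000 bp apart. Leaving out summits within 200 or 300 bp of a stronger one gave 25.1 or 20.7% in clusters and 87.1 or 90.3% of word sites inward. Protein-coding neighbours alone gave 29.2% divergent, and the nearest start alone gave 516 genes. Windows of 100 and 300 bp gave a median GC of 32.0 and 38.7% and the word in 4.68 and 19.2%, and 300 bp windows named 8 motifs, against 15. Sites within 100 or 200 bp were inward in 86.4 or 83.4%. The cause of these shifts was not tested, beyond the smaller or wider windows and sets that each choice sets by construction. The alternatives on the word, on 3L against X, on 300 bp between summits and on GC by replicate were chosen after seeing the data.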
